A study of Mus musculus with 8 samples.

Results

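Synapses are held together and specified by adhesion proteins that span the cleft, and 42 genes of such proteins were followed here by symbol in a table of 26229 genes of cultured mouse cortical neurons. All 42 were found once, and all 42 were among the 18085 genes tested. RNA of neurons labelled H2BE-KO/mCherry-KI, in which the gene H2bc21 of the histone H2B variant H2BE was knocked out with an mCherry knock-in, was compared with RNA of WT neurons (n = 4 biological replicates each). Both groups were primary cortical neurons taken from mouse embryos at E16.5 and cultured for 12 days, and polyadenylated RNA was sequenced. The sources used here do not give the strain, sex or pooling of the embryos, or the part of H2bc21 that was replaced.

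Presynaptic neurexins and the LAR-type receptor phosphatases act as hubs, each of which binds several kinds of postsynaptic partner. Neurexins bind neuroligins, LRRTM proteins and secreted cerebellins, whereas the phosphatases bind SLITRK, LRFN and interleukin-1 receptor accessory proteins and the neurotrophin receptor encoded by Ntrk3. Latrophilins bind FLRT proteins, contactins pair with contactin-associated proteins, and SynCAM proteins bind one another. Such pairs are known to help in forming synapses and in setting which kind of synapse is made.

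Fold changes are log2 values of knockout over wild type. They, their standard errors (SE) and the adjusted p are those of the authors' deposited table. Each SE comes from the authors' DESeq2 fit to all libraries and is no direct measure of spread among the 4 of a genotype. A gene was called at an adjusted p under 0.05 (DESeq2 Wald test with Benjamini-Hochberg adjustment). Values of single libraries were not analysed here. In their place, a mean normalized count per genotype was worked out from each gene's fold change and its mean over all libraries, and is called the implied count. It has no error of its own beyond that of the fold change. The header of the table names no direction, so the sign was read from the targeted gene. H2bc21 was thereby lower in the knockout, with an implied count of 185 in knockout and 2033 in wild-type neurons, at -3.45 (SE 0.19, adjusted p = 4.49e-68 in the authors' deposited table). Should the table run in the opposite direction, each rise given here would be a fall and each fall a rise.

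Of the 42 adhesion genes, 12 rose and 7 fell in the knockout, and 23 did not pass the threshold. The largest rises were those of Lrrtm3 (2.49-fold), a postsynaptic partner of neurexins, of Cbln1 (2.24-fold), a secreted bridge between neurexins and glutamate receptors, and of Cadm1 (1.78-fold), a SynCAM gene. The largest falls were those of Slitrk4, at 56.4% of wild type, and of Flrt3, at 58.4%. The called share was 45.2%, against 21.8% of all tested genes. Higher calls made up 28.6% of the members, against 11.0% of all tested genes, and lower calls 16.7%, against 10.9%. The median log2 fold change was 0.12 over the members and -0.02 over all tested genes. Members lay between 420 and 35943 in mean normalized count, and of the 9055 tested genes in that range 29.6% were called, 14.8% higher and 14.8% lower. The called genes of both directions are set out by family in the plot of fold changes and intervals. Under a t null with 6 degrees of freedom no member passed, the smallest adjusted p being 0.0653 for Lrrtm3, and 19 of 42 had an unadjusted p under 0.05 (23.3% of all tested genes). With an empirical null, taken from all tested genes with a scale of 1.961, again no member passed, the smallest adjusted p being 0.118 for Lrrtm3, and 7 had an unadjusted p under 0.05 (8.52% of all tested genes).

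**Figure D1:**
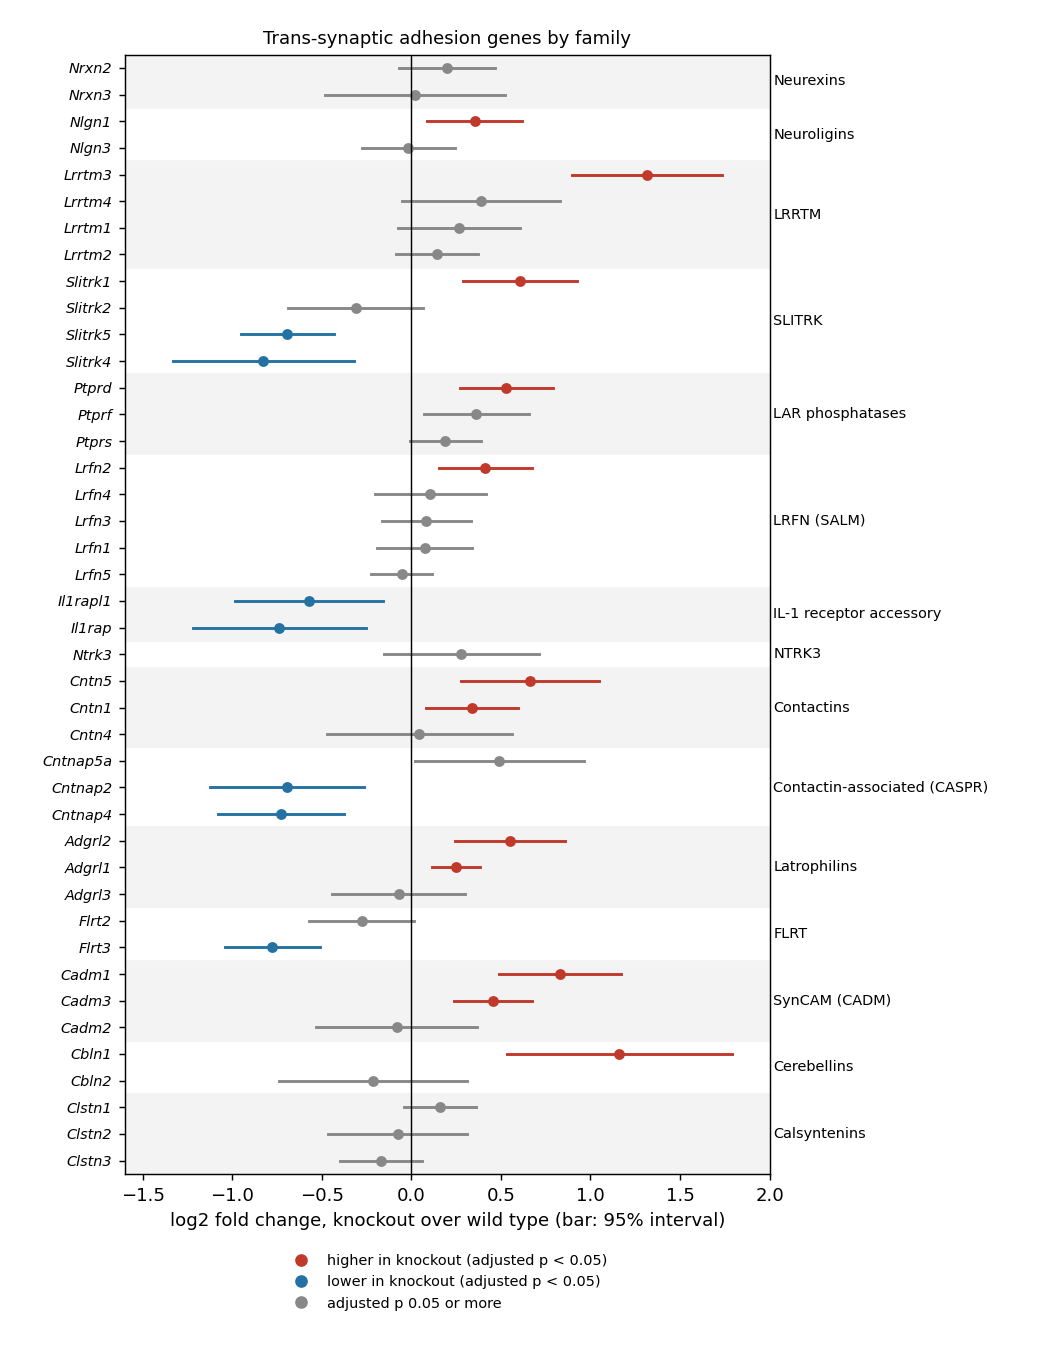
Log2 fold change, knockout over wild type, of the 42 adhesion genes by family (points), with 95% intervals (bars). Red marks the 12 genes higher and blue the 7 genes lower in the knockout at an adjusted p under 0.05. SLITRK holds calls of both colours.

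**Figure D2:**
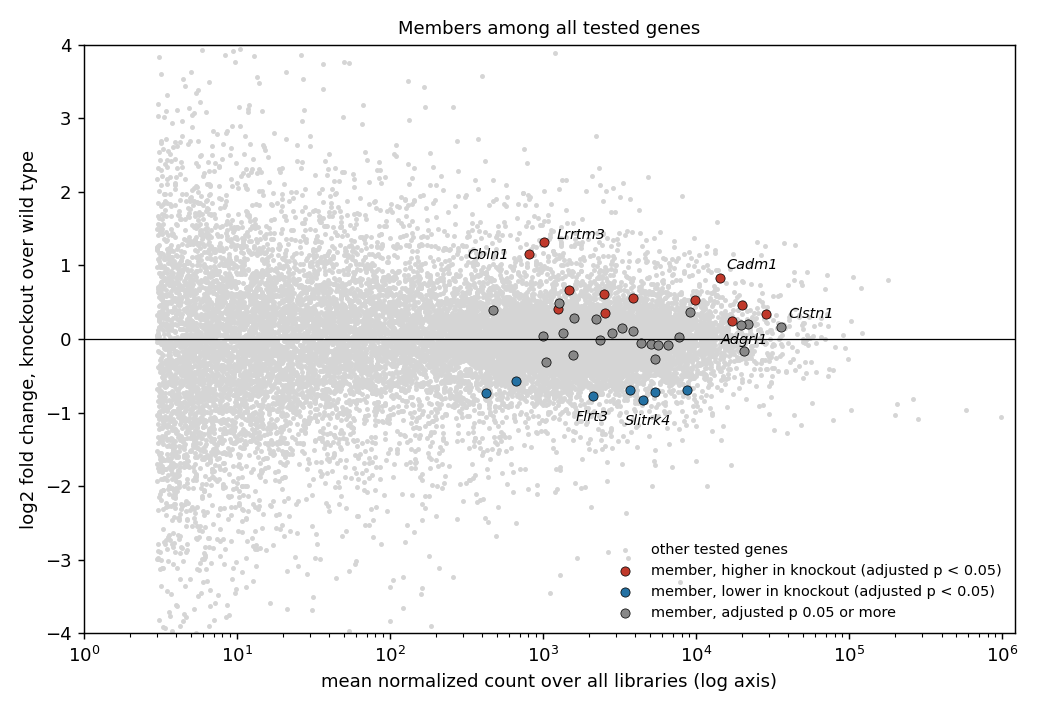
Log2 fold change against mean normalized count over all libraries (log axis) for all tested genes (grey) and the 42 adhesion genes (coloured by call). The adhesion genes sit at mean counts from 420 to 35943, and 77 tested genes beyond a log2 fold change of 4 in size lie outside the plotted range.

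Promoter sequence was looked at for Lrrtm3, the largest rise, for Flrt3, the largest fall after Slitrk4, and for a SLITRK pair of opposite direction. RefSeq windows (GRCm38.p6, the assembly mm10 names) of 300 bases, from 250 before to 50 after a start, were matched by symbol for 29 of the 42 genes, with 43 windows in all. The windows of Lrrtm3 (rose), Flrt3 (fell), Slitrk1 (rose) and Slitrk5 (fell) are printed 5′ to 3′ on the strand of the gene, with CG dinucleotides in capitals. They lie at chr10:64090206-64090505 on the minus strand, chr2:140671427-140671726 on the minus strand, chr14:108914190-108914489 on the minus strand and chr14:111675777-111676076 on the plus strand, in that order.
Lrrtm3: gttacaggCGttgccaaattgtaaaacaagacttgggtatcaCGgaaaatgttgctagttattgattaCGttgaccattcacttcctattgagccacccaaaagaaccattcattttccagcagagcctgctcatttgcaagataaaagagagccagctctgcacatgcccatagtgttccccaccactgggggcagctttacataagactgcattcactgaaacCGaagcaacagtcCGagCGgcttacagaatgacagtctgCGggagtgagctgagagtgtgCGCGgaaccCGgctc
Flrt3: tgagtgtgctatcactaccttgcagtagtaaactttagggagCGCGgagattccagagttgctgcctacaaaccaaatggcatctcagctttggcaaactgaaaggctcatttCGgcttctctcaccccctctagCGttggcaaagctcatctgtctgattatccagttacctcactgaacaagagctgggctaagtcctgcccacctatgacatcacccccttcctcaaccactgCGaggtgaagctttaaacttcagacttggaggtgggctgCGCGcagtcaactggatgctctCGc
Slitrk1: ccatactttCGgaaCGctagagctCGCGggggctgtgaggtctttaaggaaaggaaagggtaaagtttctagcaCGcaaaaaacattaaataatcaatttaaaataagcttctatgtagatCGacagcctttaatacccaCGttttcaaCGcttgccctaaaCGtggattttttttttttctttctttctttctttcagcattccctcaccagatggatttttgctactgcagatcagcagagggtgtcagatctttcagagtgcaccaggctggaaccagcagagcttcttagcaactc
Slitrk5: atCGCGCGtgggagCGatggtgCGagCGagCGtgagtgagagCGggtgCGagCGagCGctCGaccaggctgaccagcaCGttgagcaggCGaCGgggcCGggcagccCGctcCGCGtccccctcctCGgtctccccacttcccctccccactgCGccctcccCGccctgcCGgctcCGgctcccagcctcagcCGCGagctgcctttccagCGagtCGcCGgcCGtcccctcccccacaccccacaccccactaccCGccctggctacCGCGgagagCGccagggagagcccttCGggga
The Slitrk5 window held 35 CG dinucleotides and the Slitrk1 window 9, while those of Lrrtm3 and Flrt3 held 10 and 8. The median was 14 over the 43 member windows, with a range of 2 to 48, and 7 over all 32851 windows. Windows of genes that rose (12 windows of 8 genes) had a median of 9.5, those of genes that fell (6 windows of 5 genes) 11, and those of genes not called (25 windows of 16 genes) 16. These motifs were then searched on both strands. The GC box GGGCGG stood in 44.2% of member windows and in 35.7% of all windows, and 2 copies stood in the Slitrk5 window. The cyclic AMP response element TGACGTCA stood in 9.30% of member windows, those of Clstn2, Clstn3, Ptprs and Slitrk2, and in 1.79% of all windows. None of these 4 genes was called. The element itself holds a CG dinucleotide, and the part of CG content in this contrast was not tested. The E-box CACGTG was found in 9.30% against 7.15%, and TATAAA in 9.30% against 13.6%. The windows of Lrrtm3, Flrt3 and Slitrk1 held none of the 4 motifs.

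Among the presynaptic hubs, the phosphatase gene Ptprd rose and the neurexin genes were not called. Ptprd, which encodes receptor protein tyrosine phosphatase delta, had an implied count of 11498 in knockout and 7958 in wild-type neurons, or 0.53 on the log2 scale (SE 0.13, adjusted p = 9.13e-04 in the authors' deposited table). The authors' deposited table placed its paralogs Ptprf at 0.36 (SE 0.15, adjusted p = 0.0631) and Ptprs at 0.19 (SE 0.10, adjusted p = 0.173), and the 3 intervals overlap. Ptprf was the gene nearest to the threshold on the outer side, whereas Cntn1 and Nlgn1 lay just inside it. Nrxn2 had an implied count of 23279 in knockout and 20283 in wild-type neurons, at 0.20 (SE 0.14, 95% interval -0.07 to 0.47). For Nrxn3 the implied counts were 7713 in knockout and 7605 in wild-type neurons, at 0.02 with a wide interval of -0.48 to 0.53.

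Among partners of neurexins, 1 gene each of the neuroligins, LRRTM proteins and cerebellins rose and none fell. Of these 8 genes 3 (37.5%) were called, against 21.8% of all tested genes and 29.6% in the members' range of mean counts, and their median log2 fold change was 0.31. Lrrtm3 (chromosome 10, 63928472 to 64090277, minus strand, GRCm38) had an implied count of 1447 in knockout and 582 in wild-type neurons, or 1.31 on the log2 scale (SE 0.21, adjusted p = 5.88e-08 in the authors' deposited table). Its interval of 0.90 to 1.73 lay above those of its 3 paralogs. Lrrtm4 was at 0.39, Lrrtm1 at 0.26 and Lrrtm2 at 0.14, none of them called, and all 4 values were above 0. Cbln1, the gene of cerebellin-1, had an implied count of 1110 in knockout and 496 in wild-type neurons, at 1.16 (SE 0.32, adjusted p = 0.00282 in the authors' deposited table). Cbln2 was at -0.21 (SE 0.27), and the intervals of the 2 cerebellins did not overlap. Nlgn1, the gene of the neuroligin of excitatory synapses, rose to 0.35 (SE 0.14, adjusted p = 0.0459 in the authors' deposited table), with implied counts of 2842 in knockout and 2225 in wild-type neurons. Nlgn3 was at -0.02 (SE 0.13), with implied counts of 2329 in knockout and 2357 in wild-type neurons. Nlgn2, the neuroligin gene of inhibitory synapses and no member, fell to -0.23 (SE 0.08, adjusted p = 0.0245 in the authors' deposited table). The 3 calsyntenins, cadherin-like proteins that also organize synapses, were not called and lay between -0.17 for Clstn3 and 0.16 for Clstn1.

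Partners of the LAR phosphatases were called in both directions. Of 12 genes 2 rose (16.7%, against 11.0% of all tested genes) and 4 fell (33.3%, against 10.9%), and the median was 0.01. The SLITRK genes, which encode leucine-rich repeat proteins of the postsynaptic side, divided. Slitrk1 had an implied count of 2999 in knockout and 1971 in wild-type neurons, at 0.61 (SE 0.16, adjusted p = 0.00212 in the authors' deposited table). Slitrk5 had an implied count of 2809 in knockout and 4538 in wild-type neurons, at -0.69 (SE 0.13, adjusted p = 7.56e-06). Slitrk4 had an implied count of 3248 in knockout and 5759 in wild-type neurons, at -0.83 (SE 0.26, adjusted p = 0.01003 in the authors' deposited table). The interval of Slitrk1, 0.29 to 0.92, overlapped with none of those of the 3 other SLITRK members, and Slitrk2 was at -0.31 without a call. Both accessory protein genes fell. Il1rap was at -0.74 (SE 0.25, adjusted p = 0.0178) and its X-linked relative Il1rapl1 at -0.57 (SE 0.21, adjusted p = 0.0345 in the authors' deposited table), with implied counts of 315 and 535 in knockout and 525 and 795 in wild-type neurons. Of the 5 LRFN genes, Lrfn2 rose to 0.41 (SE 0.13, adjusted p = 0.0126 in the authors' deposited table). Its 4 relatives lay between -0.05 for Lrfn5 and 0.11 for Lrfn4 and were not called. The neurotrophin-3 receptor gene Ntrk3 was at 0.28 (SE 0.22) without a call. The division into partners of neurexins and of phosphatases was drawn from background knowledge after the values were seen. Taking the LRRTM, SLITRK, LRFN and FLRT genes together as leucine-rich repeat families, 3 of 15 rose and 3 fell, or 20% each. All tested genes gave 11.0% higher and 10.9% lower, and those in the members' range of mean counts 14.8% each way. The median of the 15 genes was 0.08.

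Latrophilin genes rose where they were called, and the FLRT ligand gene Flrt3 fell. Adgrl2 rose to 0.55 (SE 0.16, adjusted p = 0.00376) and Adgrl1 to 0.25 (SE 0.07, adjusted p = 0.00307 in the authors' deposited table). Adgrl1 had the smallest SE of the 42 genes, with implied counts of 18553 in knockout and 15629 in wild-type neurons. Adgrl3 was at -0.07 (SE 0.19), and the 3 intervals overlap. Flrt3 had an implied count of 1567 in knockout and 2684 in wild-type neurons, at -0.78 (SE 0.13, adjusted p = 4.83e-07 in the authors' deposited table). Flrt2 was at -0.28 (SE 0.15, adjusted p = 0.180) without a call.

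Contactin genes and those of contactin-associated proteins were called in opposite directions. Cntn5 rose to 0.66 (SE 0.20, adjusted p = 0.00612) and Cntn1 to 0.34 (SE 0.13, adjusted p = 0.0463 in the authors' deposited table). Cntn1 was among the most abundant members, with implied counts of 31769 in knockout and 25134 in wild-type neurons, and Cntn4 was at 0.04 (SE 0.26). Cntnap4 had an implied count of 4030 in knockout and 6670 in wild-type neurons, at -0.73 (SE 0.18, adjusted p = 6.89e-04 in the authors' deposited table). Cntnap2, the gene of CASPR2, known for clustering potassium channels along axons, had an implied count of 6646 in knockout and 10750 in wild-type neurons, at -0.69 (SE 0.22, adjusted p = 0.0109 in the authors' deposited table). Cntnap5a was at 0.49 without a call (SE 0.24, adjusted p = 0.131), and its interval of 0.02 to 0.96 lay above those of both Cntnap2 and Cntnap4. Of the SynCAM genes, which encode immunoglobulin-type adhesion proteins, Cadm1 had an implied count of 18133 in knockout and 10205 in wild-type neurons, at 0.83 (SE 0.17, adjusted p = 4.22e-05 in the authors' deposited table). Cadm3 rose to 0.46 (SE 0.11, adjusted p = 5.47e-04 in the authors' deposited table), with implied counts of 22931 in knockout and 16728 in wild-type neurons, and Cadm2 was at -0.08. The intervals of Cadm1 and Cadm2 did not overlap. Over all families, intervals were apart in 11 of 45 pairs of family members, 3 of them within LRRTM and 3 within SLITRK. The share among pairs of other genes was not worked out, so the count is no measure of divergence within families.

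**Figure D3:**
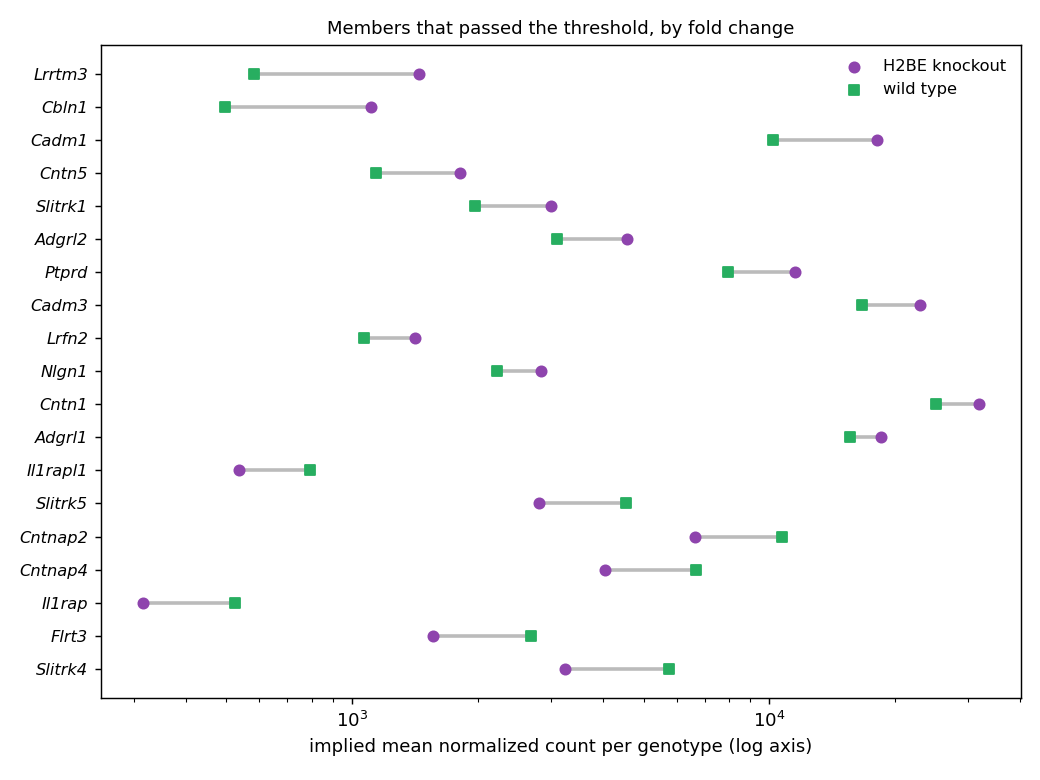
Implied mean normalized count per genotype (log axis) of the 19 adhesion genes called at an adjusted p under 0.05, knockout as circles and wild type as squares, ordered by fold change. Lrrtm3 and Cbln1 show the widest gaps among the genes that rose, and Slitrk4 among those that fell.

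The members spanned a wide range of levels and of gene lengths. Per kilobase of annotated exon, the mean normalized count over all libraries ran from 37.0 for Il1rap to 7710 for Clstn1, at the 36.8th and 99.4th percentiles of tested genes. Clstn3 (4108 per kilobase), Cntn1 (3016), Cadm3 (2736) and Adgrl1 (1990) followed Clstn1, and Nrxn2 stood at 1577. Ntrk3 (52.7), Il1rapl1 (71.2) and Lrrtm4 (76.5) were the lowest after Il1rap. The span from first to last annotated base ran from 3.88 kb for Lrfn4 to 2271 kb for Ptprd, with a median of 137 kb. Among tested genes of mean count at least 100 that span at least 100 kb, 36.7% were called, 22.0% higher and 14.6% lower. Of all 11537 tested genes with that mean count, whatever their span, 28.8% were called, 14.6% higher and 14.2% lower. Of the 22 members of such span 8 rose (36.4%) and 4 fell (18.2%). Across the 42 members, which share libraries, log2 fold change and the logarithm of span gave a Pearson r of 0.04 and a Spearman rho of 0.08, against 0.14 and 0.17 over 11512 tested genes of mean count at least 100. The part of gene length in the counts was not tested.

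**Figure D4:**
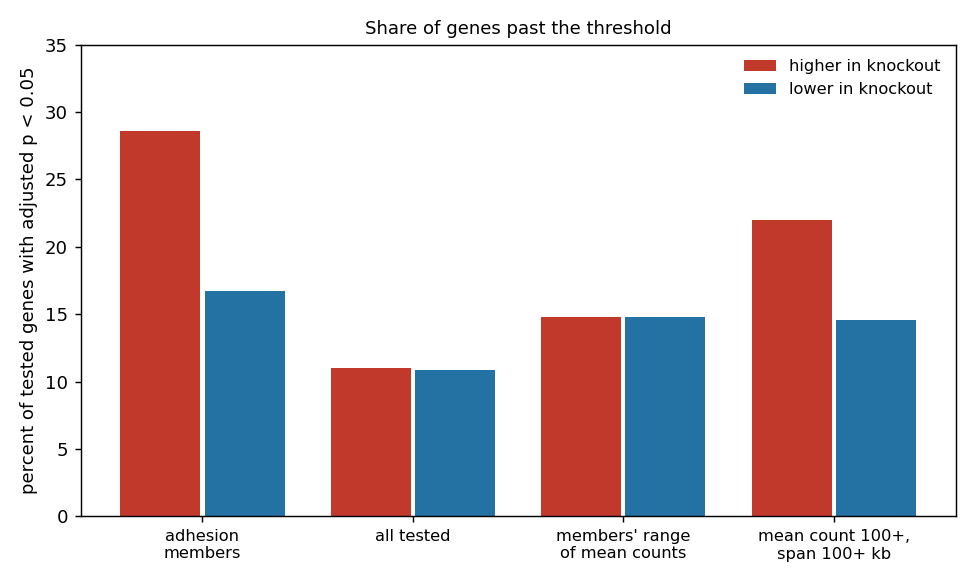
Percent of tested genes called higher (red) and lower (blue) in the knockout among the 42 adhesion genes, all tested genes, the 9055 genes in the members' range of mean counts and the 1923 genes with a mean count of at least 100 and a span of at least 100 kb. The share of higher calls is 28.6% among the adhesion genes, and 11.0%, 14.8% and 22.0% in the other groups.

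Genes that work with these adhesion proteins were counted against the 21.8% called among all tested genes and the 29.6% called in the members' range of mean counts. Of 42 other synaptic adhesion genes, 8 rose and 7 fell (35.7% called), the median being 0.10. By the authors' deposited table Adgrb3, an adhesion G protein-coupled receptor gene, was at 1.17 (SE 0.15), and Ntng1, a netrin-G gene, at 1.46 (SE 0.21). Lrrc4, the gene of a netrin-G ligand, was at -0.73 (SE 0.11), and Cntnap1, the CASPR gene of the paranodal junction, at -1.30 (SE 0.20). Of 30 genes of cytoplasmic and glutamate receptor partners 6 rose and 3 fell, with a median of 0.10, and their called share of 30.0% was close to that of the count range. Lin7c, a scaffold of the neurexin tail complex, was at 0.87 (SE 0.15). The band 4.1 gene Epb41l3 was at -0.50 (SE 0.14) and Dlg1 at -0.49 (SE 0.15). Of 12 regulators of neurexin splicing and shedding 7 rose and 1 fell (66.7% called), with a median of 0.32. Khdrbs3, which encodes the neurexin splicing factor SLM2, was at 0.94 (SE 0.18), and Adam10, a protease that sheds synaptic adhesion proteins, at 0.85 (SE 0.17). Rbfox2 was at 0.50 (SE 0.13) and Khdrbs2, of SLM1, at -0.75 (SE 0.19), all in the authors' deposited table. Transcript isoforms cannot be read from counts per gene, so neurexin splicing itself was not measured.

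The neuron label held in marker levels, and markers of cell classes moved beside the adhesion genes. General neuron markers had mean normalized counts from 1281 to 90482. Of 10, 2 rose and 3 fell (50% called, against 21.8% of all tested genes). Among them were Tubb3 (0.74) and Rbfox3 (0.72), which rose, and Nefh (-1.75) and Eno2 (-0.53), which fell in the authors' deposited table. Projection neuron markers rose in 8 and fell in 2 of 13 cases (76.9% called). Their median was 0.75 and their summed implied count 62141 in knockout and 41361 in wild-type neurons. Rorb (1.94), Tbr1 (1.90), Emx1 (1.41) and Neurod2 (1.12) had the smallest adjusted p, and the 2 that fell were Cux1 (-0.49) and Cux2 (-0.82). Markers of GABAergic interneurons gave 6 falls and no rise among 14 (42.9% called). Their median was -0.91 and their summed implied count 88902 in knockout and 148831 in wild-type neurons. Npy (-2.89), Slc32a1 (-1.32), Lhx6 (-1.26) and Gad1 (-1.02) were among them. In bulk RNA, fewer cells of a type and less RNA per cell cannot be told apart, and the part of these shifts in the adhesion genes was not tested.

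Astrocyte, progenitor and oligodendrocyte lineage markers rose where they were called, and microglia and vascular markers fell where they were called. Called shares were 20% of astrocyte, 22.2% of progenitor and 25% of oligodendrocyte lineage markers, near the 21.8% of all tested genes. They were 55.6% of microglia markers and 33.3% of endothelial and mural markers. Astrocyte markers, led by Slc1a2 (0.93) and Aldoc (2.04), rose in 2 of 10 tested cases, with a median of 0.95. Their summed implied count was 20850 in knockout and 10873 in wild-type neurons, of which Slc1a2 alone made up 17705 and 9274. Progenitor markers rose in 2 of 9 cases, Hes1 (2.17) and Eomes (2.52), with sums of 3197 in knockout and 3263 in wild-type neurons. Vim, which was not called and lay at -0.32, made up 1786 and 2232 of these sums. Oligodendrocyte lineage markers rose in 2 of 8 tested cases, Mog (0.99) and Cnp (0.51), with sums of 2314 in knockout and 1896 in wild-type neurons. Mbp, which was not called, made up 1227 and 1112 of these sums. Microglia markers fell in 5 of 9 tested cases, among them Cd68 (-2.29), Csf1r (-3.09), C1qa (-2.86) and Tyrobp (-4.05), with sums of 224 in knockout and 1011 in wild-type neurons. Endothelial and mural markers fell in 3 of 9 tested cases, Acta2 (-1.73), Pdgfrb (-1.21) and Cldn5 (-6.24). Cldn5 had a mean normalized count of only 3.00, and its fold change was imprecise (SE 1.74). The sums were 1365 in knockout and 2142 in wild-type neurons, of which Rgs5, not called, made up 1111 and 1525. Sox10, Mag, P2ry12, Tmem119 and Cdh5 were not tested, their mean normalized counts being 1.52 or less. The part of these markers in the adhesion results was not tested.

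**Figure D5:**
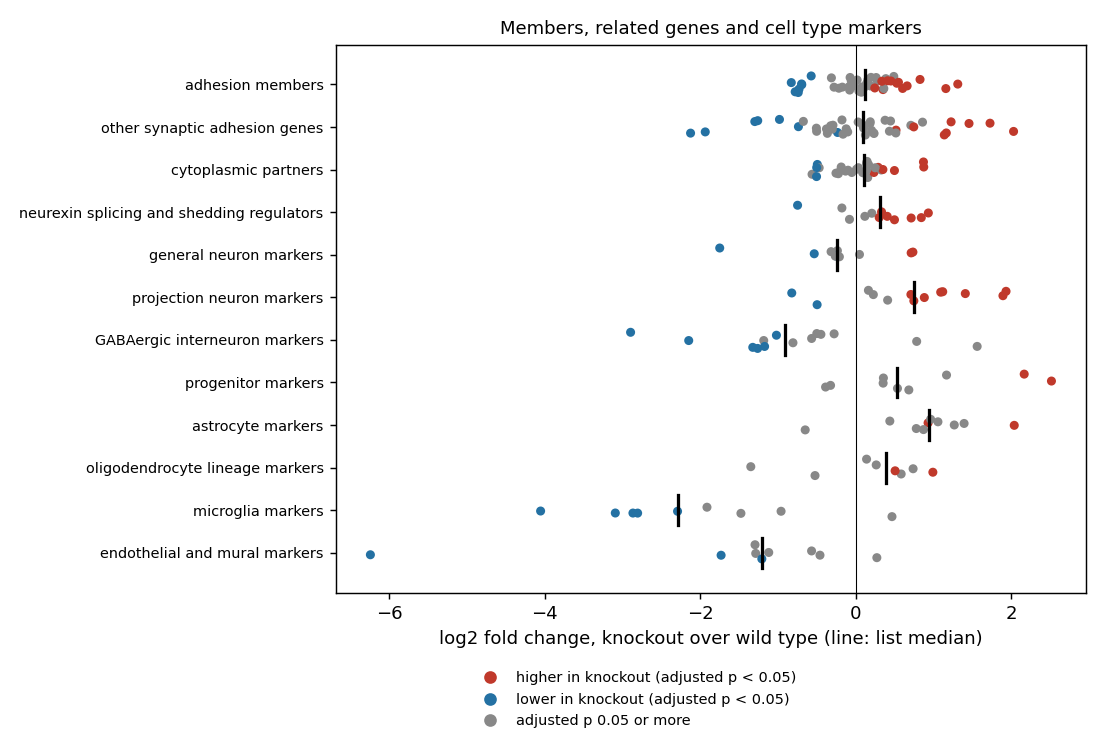
Log2 fold change, knockout over wild type, of each tested gene in the adhesion list, in 3 lists of related genes and in 8 lists of cell type markers (points, coloured by call, with vertical jitter), with the list median as a black line. The adhesion genes spread to both sides of 0, projection neuron markers lie mostly above 0 and GABAergic interneuron markers mostly below.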

How the data were processed

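RNA of 4 H2BE knockout and 4 wild-type neuron cultures was sequenced, and 1 table of the authors' comparison of the genotypes was used. Libraries were made with a stranded mRNA kit, per the labels' protocols. The submitters' processing notes name the build mm10 and the tools DESeq2 and DESeq. The sources used here do not give the aligner, the counter, its use of strand or any version. Per the file headers, the signal deposited for each gene is its normalized count averaged over the libraries. Its fold change and SE were deposited on the log2 scale. The deposited score is a Wald statistic, checked to equal their quotient within 2.86e-07. The deposited p-value has an adjusted form for 18085 of 26229 genes, checked to be a Benjamini-Hochberg adjustment within 0.757%. Genes without an adjusted p were left untested. Mean normalized counts summed to 3.96e+07, the average library total after scaling, and the depth of single libraries was not analysed. The median SE was 0.16 for the adhesion genes.

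Signs were turned so that H2bc21 is lower in the knockout. Implied counts assume 4 and 4 libraries and a mean that weights them equally. Intervals are normal 95% intervals from the SE, and whether 2 of them overlap is a description, not a test, since genes share libraries. Genes were matched by Ensembl identifier to GENCODE M21 (GRCm38), 26039 in all and all 42 members. Length is the union of annotated exons. The alternatives changed the threshold, the genes adjusted over, the size of change, the null distribution and the centring, and the calculations were tested on simulated data. No gene set was tested. The members and lists were chosen with earlier results of these data known. All members were described. Of each other list, up to 4 called genes with the smallest adjusted p were named. Nlgn2 was added as a paralog of members, and Cux1 and Cux2 as the projection neuron markers that fell. Some genes of these lists are not reported here by name. No protein sequence was used here. Python 3.11.15, numpy 2.4.6, scipy 1.17.1, pandas 2.3.3, statsmodels 0.14.6 and matplotlib 3.10.9 were used.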

Additional observations from a re-analysis of the deposited data

How the results depend on the processing

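All alternatives except centring reused the deposited fold changes, so they could not change the direction of a member. Centring on a median of -0.01 moved all values by the same small amount, and no member changed direction. At an adjusted p of 0.01, 9 members were higher and 3 lower, against 7.35% and 6.59% of all tested genes. With a log2 fold change of at least 0.5 in size, 7 were higher and 7 lower, against 7.43% and 7.24% of all tested genes. Under a t null with 6 degrees of freedom 0 were higher and 0 lower, with 19 at an unadjusted p under 0.05, and with an empirical null 0 and 0, with 7. Over all tested genes the t distribution left 0 higher and 1 lower, which was H2bc21, and the empirical null left 51 and 23. The cause of these losses was not tested. At an adjusted p of 0.1, 13 were higher and 7 lower, against 13.8% and 14.3% of all tested genes. With adjustment over every gene with a p-value, 10 were higher and 7 lower, against 6.83% and 6.64% of those genes. Adjusted over genes of mean count at least 100, 13 were higher and 7 lower, against 15.7% and 15.4% of those genes. Centring on the median of the latter genes (-0.01) gave 12 higher and 7 lower, against 11.6% and 10.2% of all tested genes. The median of 0.12 could likewise change only under centring, where it stayed above 0. H2bc21 was called under both other nulls and under centring. Leaving out single libraries was not run, and no count model was refitted, since the values used are one row per gene over all libraries. No paired analysis was possible because the table carries no columns of single replicates. Precision is limited most for Cbln1 (SE 0.32), Cbln2 (SE 0.27) and Cntn4 (SE 0.26).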

Other observations

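Several adhesion genes lie inside another gene on the opposite strand, and the pairs did not share a direction in each case. Lrrtm1, Lrrtm2 and Lrrtm3 lie within the alpha-catenin genes Ctnna2, Ctnna1 and Ctnna3. Lrrtm3 rose to a log2 fold change of 1.31, while Ctnna3 was at -0.52 (SE 0.56, mean normalized count 31.3) without a call. Lrrtm1 was at 0.26 and Ctnna2 at 0.01 (SE 0.07), neither called, and Lrrtm2 was at 0.14 and Ctnna1 at 0.17 (SE 0.13). Flrt3 fell to -0.78 inside Macrod2, which rose to 0.40 (SE 0.11, adjusted p = 0.00378 in the authors' deposited table). Lrfn4 was at 0.11 without a call inside Pcx, the gene of pyruvate carboxylase, which fell to -0.42 (SE 0.13, adjusted p = 0.00932 in the authors' deposited table). Cbln1 rose to 1.16 inside the noncoding RNA gene Gm2694, which was at 0.57 (SE 0.52, mean normalized count 38.9) without a call.

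Shared exon bases were few for these pairs, with none for Lrrtm1, Lrrtm3, Flrt3, Lrfn4 and Cbln1 and 95 for Lrrtm2. Among the called members, Nlgn1 shared 1229 exon bases, 9.16% of its annotated exon length, with the antisense gene A830092H15Rik, at a mean normalized count of 17.3. Adgrl1 shared 1107 bases with Gm10644, at a mean normalized count of 8.85, and Cadm3 shared 361 bases with Ackr1 on its own strand, at 1650. How the counting treated reads in shared bases, and whether it used strand, is not stated, so the fold changes of these members are uncertain by the reads of such partners. These pairs were named after their values were seen.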
